A study of Mus musculus with 6 samples.

Results

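Triglyceride is built in adipocytes from glycerol-3-phosphate and fatty acyl-CoA by a short series of membrane enzymes. Glycerol-3-phosphate acyltransferases attach the first acyl chain, acylglycerol-phosphate acyltransferases attach the next and give phosphatidic acid, lipin phosphatases remove the phosphate to leave diacylglycerol, and diacylglycerol acyltransferases add the last chain. A separate route makes diacylglycerol from monoacylglycerol. White adipose tissue stores the product for the whole body, and brown adipose tissue stores it as fuel for heat.

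The 10 genes described here encode enzymes of these steps, namely Gpam, Gpat3, Agpat2, Agpat3, Lpin1, Lpin2, Lpin3, Dgat1, Dgat2 and Mogat1. They were chosen by name, as every probe set whose platform gene symbol was one of these, which gave 10 of the 18193 genes named on the array and 20 probe sets. Expression was measured in brown adipose tissue from the interscapular depot and white adipose tissue from the epididymal depot of untreated male C57BL/6 mice of 10 to 12 weeks kept at ambient temperature, with 3 Affymetrix arrays per tissue. The labels name no genetic change, and both tissues were dissected from 3 mice. Each kind of fat was taken from 1 depot alone, and the kind of fat and the depot cannot be told apart. Nothing states that samples with the same number came from the same mouse, so the main fit treated the arrays as independent. Any sharing of mice between the tissues is not in its p-values, which measure the spread between these arrays.

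The tissue labels were checked on marker genes. Ucp1, the uncoupling protein of brown fat, averaged 12942 ± 267 in brown and 26.1 ± 31.7 in white (SD, n = 3 each), where it was called absent on all 3 arrays. Leptin (Lep) had 54.2 ± 19.2 in brown and 1743 ± 16.5 in white (SD, n = 3 each). All 7 brown adipocyte markers were higher in brown and all 5 white adipocyte markers were higher in white. On the probe set read for each gene, Ucp1, Otop1 and Ppara had no present call on the white arrays and Agt had none on the brown arrays. Those signals are thus not measured levels. Another Ppara probe set was called present on all 3 white arrays, with 90.8, 76.0 and 95.4. A separate table of the series, not used for the results, runs the opposite way: each of its columns correlated best with the array file of the same number from the other tissue (r from 0.840 to 0.874, against 0.778 to 0.794 with its own). The deposited signal had a median of 38.5 ± 0.902 in brown and 52.4 ± 0.231 in white, and probe sets called present made up 36.6% ± 0.947 of a brown array and 45.4% ± 0.289 of a white array (SD, n = 3 each). The actin 3'/5' signal ratio, which rises as RNA degrades, was between 1.36 and 2.24 in brown, with the highest value in replicate 2, and between 1.19 and 1.73 in white. All signals below were quantile-normalised between arrays and are in arbitrary units that cannot be compared between genes. Differences are on the log2 scale, brown minus white.

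Of the 10 genes, 9 were called present on at least 3 arrays and were tested, and each of these 9 was called present in both tissues. Agpat2 and Agpat3 were higher in brown, Gpat3, Lpin1 and Mogat1 were higher in white, and Gpam, Lpin2, Dgat1 and Dgat2 were not called (limma, Benjamini-Hochberg adjusted p below 0.05 over 10264 genes). These 2 genes higher in brown and 3 higher in white stand beside 28.2% and 32.7% of all genes tested, and the 5 called of 9 beside 61% of all genes. The share of members called is thus near that of the array as a whole. Differences of at least 2-fold were found for 3 members, Gpat3, Agpat3 and Mogat1, against 25.3% of all genes. The median difference was -0.06 over the 9 members and -0.04 over all genes. In samples of whole tissue, fewer cells of a type and less RNA per cell cannot be told apart.

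**Figure D1:**
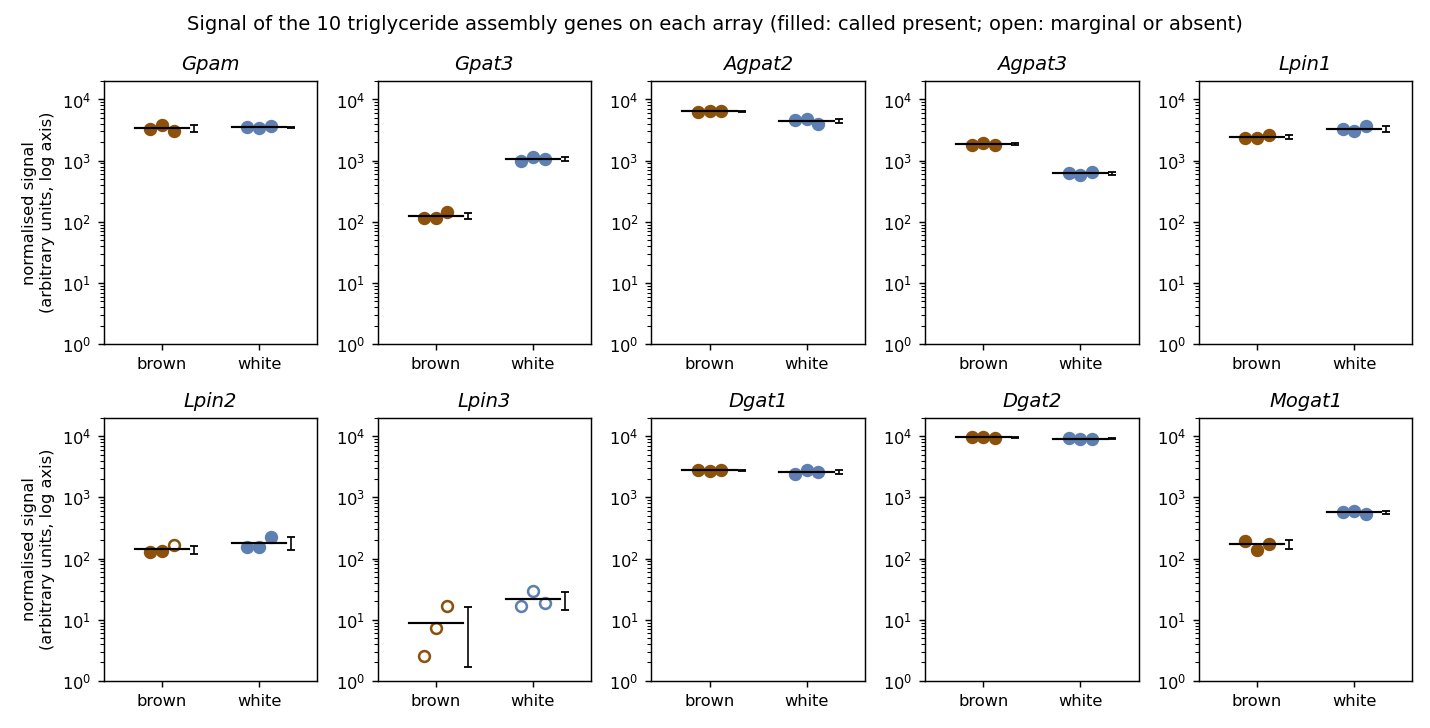
Quantile-normalised signal (arbitrary units, log axis) of each of the 10 genes on the 3 brown and 3 white arrays, with 1 probe set per gene. Lines are means, bars at the side are SD, and open points are arrays on which the probe set was called marginal or absent; Gpat3 and Mogat1 lie higher on all white arrays, Agpat3 lies higher on all brown arrays, and all Lpin3 points are open.

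The sequences upstream of the start sites of the 3 genes with at least 2-fold differences are given as RefSeq records them in build GRCm38.p6, 5′ to 3′ on the strand of the gene, for the 250 bases before the start. Gpat3 lies at chr5:100845979-100846228 on the plus strand, Agpat3 at chr10:78351701-78351950 on the minus strand and Mogat1 at chr1:78510810-78511059 on the plus strand. Capitals mark matches on either strand to the GC box GGGCGG, the E-box CACGTG, the nuclear receptor motif AGGTCA, the CCAAT box CCAAT or the TATA box TATAAA.
Gpat3: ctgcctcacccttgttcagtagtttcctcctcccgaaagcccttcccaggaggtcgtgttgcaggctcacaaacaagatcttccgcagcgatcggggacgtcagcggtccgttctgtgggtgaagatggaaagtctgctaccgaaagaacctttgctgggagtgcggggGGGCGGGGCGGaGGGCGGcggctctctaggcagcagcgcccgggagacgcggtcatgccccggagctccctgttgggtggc
Agpat3: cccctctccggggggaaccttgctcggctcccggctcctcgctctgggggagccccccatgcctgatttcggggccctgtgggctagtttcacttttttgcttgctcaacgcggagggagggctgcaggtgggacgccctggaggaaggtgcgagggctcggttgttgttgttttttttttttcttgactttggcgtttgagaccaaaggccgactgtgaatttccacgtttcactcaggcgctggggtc
Mogat1: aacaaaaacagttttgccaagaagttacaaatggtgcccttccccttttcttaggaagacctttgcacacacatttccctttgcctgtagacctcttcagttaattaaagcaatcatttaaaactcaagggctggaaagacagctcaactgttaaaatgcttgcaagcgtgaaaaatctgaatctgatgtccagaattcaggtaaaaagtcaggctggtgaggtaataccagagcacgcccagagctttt
The Gpat3 sequence holds 3 GC boxes, whose first bases lie at -81, -76 and -69 from the start, and the pair farthest from the start share 1 base. The Agpat3 and Mogat1 sequences hold none of the 5 motifs in this window. Among 12 such windows of 8 of the 10 genes, 6 held a GC box, against 32.7% of all 32851 windows in the table. The E-box was in 1 of the 12 (6.02% of all), the nuclear receptor motif in 2 (14.0% of all), the CCAAT box in 2 (33.8% of all) and the TATA box in 0 (12.4% of all). A match describes only the letters of the sequence.

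The first acylation step is served here by Gpam, the enzyme of the outer mitochondrial membrane, and Gpat3, an enzyme of the endoplasmic reticulum. Gpat3 had signals of 117, 116 and 142 on the brown arrays and 1004, 1136 and 1070.4 on the white arrays. Every white array was higher than every brown array. The difference was -3.10 (95% interval -3.35 to -2.85; limma adjusted p = 9.22e-09), which is 8.58-fold lower in brown and the 149th largest of the 3361 genes higher in white. Gpam had signals of 3342, 3857 and 3028 in brown against 3499, 3475 and 3617 in white on its brighter probe set. Its brown arrays spanned the white ones. The difference was -0.06 (95% interval -0.24 to 0.12; limma adjusted p = 0.557), an interval of 0.849 to 1.09 for the ratio of brown over white. The dimmer Gpam probe set read 556, 339 and 575 in brown against 358, 316 and 175 in white. It was called higher in brown at 0.82 (limma adjusted p = 0.0292 over 19819 probe sets), although its brown replicate 2 lay within the white range, and the pair of Gpam probe sets thus gave different answers.

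The next acylation is carried out by Agpat2, whose loss causes generalised lipodystrophy in humans and mice, and by Agpat3, known to favour polyunsaturated acyl chains. Both were higher in brown. Agpat3 had signals of 1826, 1933 and 1819 in brown against 630.3, 585 and 646 in white. The arrays of each tissue lay close together and the tissues did not overlap. The difference was 1.58 (95% interval 1.43 to 1.74; limma adjusted p = 3.54e-08), or 3.00-fold. All 4 Agpat3 probe sets were called higher in brown, though their sizes were unequal, at 1.58, 1.85 and 2.77 on the log2 scale for 3 of them and 1.99-fold for the dimmest of those present on all arrays. The value of 2.77 comes from a probe set of a kind that can cross-hybridise, with 426, 436 and 421 in brown against 57.1, 59.0 and 72.6 in white, where it was called absent on replicate 3. Agpat2 had signals of 6235, 6434 and 6449.9 in brown against 4577, 4782 and 4000.4 in white. The brown arrays were all above the white ones, by less than for Agpat3. The difference was 0.52 (95% interval 0.38 to 0.67; limma adjusted p = 6.45e-05), or 1.44-fold.

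Lipins convert phosphatidic acid to diacylglycerol. Lpin1 is the gene mutated in the fatty liver dystrophy mouse, which lacks normal fat depots, and Lpin2 is mutated in the human inflammatory disorder Majeed syndrome. Lpin1 had signals of 2312, 2359.9 and 2629 in brown against 3229, 3048 and 3707 in white. Its other probe set had 2249, 2228 and 2145 in brown against 3184, 2884 and 2935 in white. With both probe sets the white arrays lay above the brown ones without overlap. The differences were -0.45 (95% interval -0.63 to -0.27; limma adjusted p = 0.000812 over genes) and -0.44 (limma adjusted p = 0.000102 over probe sets), each 1.36-fold. This call was lost when each array was centred on its median (-0.06, limma adjusted p = 0.550).

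Lpin2 was dim, with 126, 131 and 165 in brown against 157, 156 and 227 in white on its brightest probe set. The tissues overlapped, and brown replicate 3 was called marginal. The difference of -0.34 was not called (95% interval -0.75 to 0.06; limma adjusted p = 0.128), an interval of 0.593 to 1.04 for the ratio of brown over white. It was called higher in white with the deposited scaling (-0.89, limma adjusted p = 0.00199) and with spike-in scaling (-0.89, limma adjusted p = 0.000567). The other 3 Lpin2 probe sets were present on fewer than 3 arrays and were not tested. One of them was absent on all 6 arrays and still read 17.4, 20.1 and 25.5 in brown against 119, 76.5 and 84.5 in white. Lpin3, the remaining lipin, was absent on all 6 arrays, with signals of 2.58, 7.39 and 16.8 in brown against 16.6, 29.6 and 18.7 in white. Its detection p-values ran from 0.466 to 0.634 in brown and from 0.219 to 0.366 in white, so no fold is given.

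The last acylation can be carried out by Dgat1 or Dgat2, which have the same reaction but unrelated sequences. Dgat1 had signals of 2786, 2735 and 2746 in brown against 2430.3, 2799.7 and 2639 in white, on a probe set of a kind that can cross-hybridise. The white arrays spanned the brown ones. The difference was 0.07 (95% interval -0.06 to 0.21; limma adjusted p = 0.321), an interval of 0.958 to 1.16 for the ratio of brown over white. Its second probe set gave 206, 175 and 158 in brown against 163, 194 and 149 in white, also overlapping (0.09, limma adjusted p = 0.638).

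Dgat2 had signals of 9634, 9542 and 9363 in brown against 9210.3, 9063 and 9088 in white. The arrays did not overlap, but the gap was small, at 0.06 (95% interval -0.02 to 0.14; limma adjusted p = 0.165). This probe set was among the brightest of the arrays, with 23 of 45037 probe sets brighter. The other Dgat2 probe set had 5123, 4229 and 5059 in brown against 3627, 3857 and 3636 in white. These arrays did not overlap, and this probe set was called higher in brown at 0.37 (95% interval 0.20 to 0.53; limma adjusted p = 0.00191). The pair of Dgat2 probe sets thus differ in their call.

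Mogat1 belongs to the same protein family as Dgat2 and acylates monoacylglycerol. Its signals were 197, 139.7 and 175 in brown against 577, 604 and 539 in white. All white arrays were above all brown arrays. The difference was -1.76 (95% interval -2.06 to -1.46; limma adjusted p = 1.84e-06), or 3.40-fold lower in brown, the 619th largest of the genes higher in white.

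**Figure D2:**
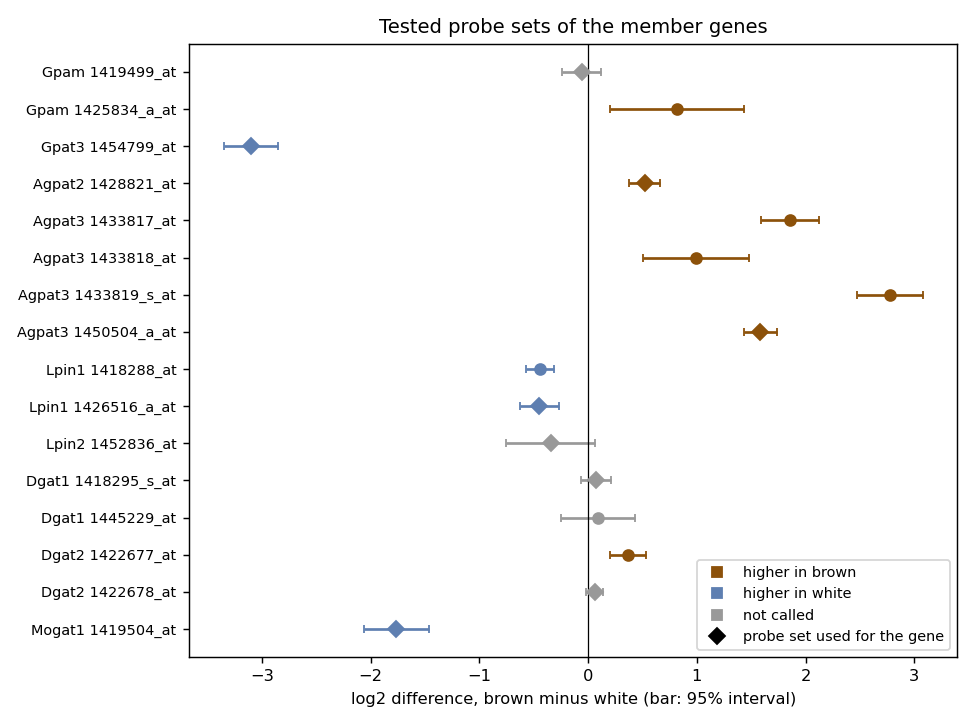
Log2 difference (brown minus white) with its 95% interval for the 16 tested probe sets of the member genes; colour gives the call over all probe sets and diamonds mark the probe set that stands for the gene. All 4 Agpat3 probe sets lie to the right and both Lpin1 probe sets to the left, while the pairs for Gpam and Dgat2 each hold 1 called and 1 uncalled probe set.

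Over all 16 tested probe sets of these genes, 7 were higher in brown, 4 were higher in white and 5 were not called, against 24.6% and 29.9% of all 19819 probe sets tested. The 11 called of 16 stand beside 54.5% of all probe sets called in either direction. Probe sets of 1 gene share a transcript and are no replicates. The median difference was 0.08 over these probe sets and -0.06 over all.

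Pairs of members were then set against each other on the same array, as the change between tissues in the log2 ratio of their signals. Of the 5 pairs, 4 were isoenzymes of 1 step, and the other set Mogat1 against Dgat2, which belong to different steps. The ratio of Gpat3 to Gpam was lower in brown by 3.04 on the log2 scale, or 8.25-fold, and the ratio of Mogat1 to Dgat2 changed by -1.82, or 3.54-fold. The ratio of Agpat3 to Agpat2 changed by 1.06 towards brown, or 2.09-fold. For these 3 pairs the tissues did not overlap (exact permutation p = 0.1 each, two-sided, adjusted p = 0.167), and 0.1 is the smallest p that 3 against 3 allows. The ratio of Lpin2 to Lpin1 changed by 0.10 (exact permutation p = 0.4, adjusted p = 0.5) and that of Dgat2 to Dgat1 by -0.01 (exact permutation p = 0.9, adjusted p = 0.9), with overlapping tissues for both. Any constant factor per array cancels in such a ratio, but quantile normalisation is not a constant factor. With the deposited, spike-in or median scaling alike, the changes were -3.50 for Gpat3 to Gpam, 0.67 for Agpat3 to Agpat2 and -2.37 for Mogat1 to Dgat2. Those for Lpin2 to Lpin1 and Dgat2 to Dgat1 turned, to -0.38 and 0.14.

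**Figure D3:**
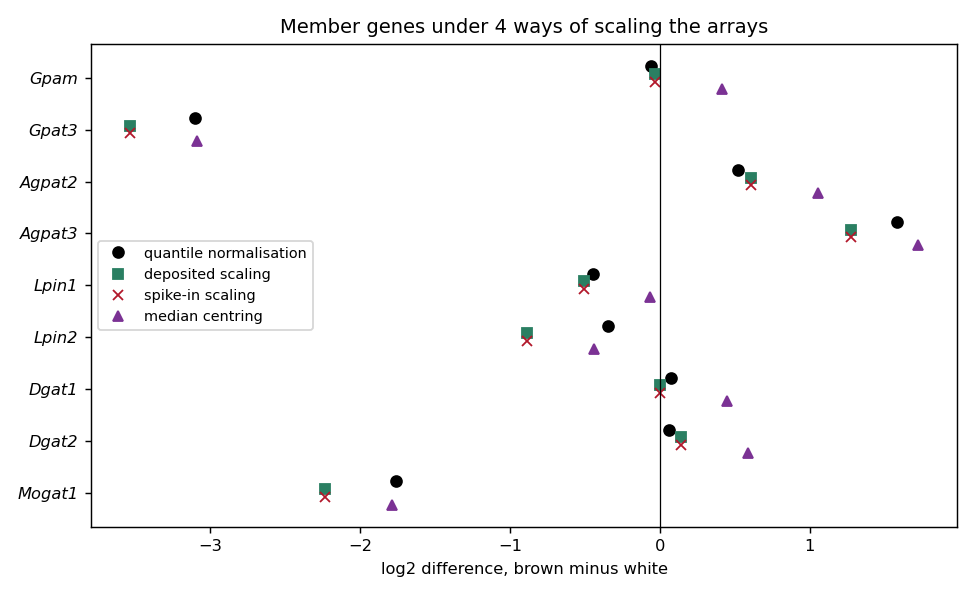
Log2 difference (brown minus white) of the 9 tested member genes under 4 ways of scaling the arrays. Only Gpam changes side, from -0.06 with quantile normalisation to 0.41 with median centring. Gpat3, Mogat1, Agpat3 and Agpat2 were called under all 4.

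How the arrays are scaled thus bears on the small differences. The median difference of all tested probe sets was -0.06 under quantile normalisation. It was -0.53 as deposited, -0.53 when arrays were set level on their spike-in controls, and -0.08 under median centring. Gpat3 ran from -3.53 to -3.09 over these 4 settings, Mogat1 from -2.23 to -1.76, Agpat3 from 1.28 to 1.72 and Agpat2 from 0.52 to 1.05, and all 4 genes were called in each. With the deposited scaling Dgat2 (0.14) and Lpin2 (-0.89) were called too, which made 3 members higher in brown and 4 in white. With median centring Gpam (0.41), Dgat1 (0.45) and Dgat2 (0.59) were also called higher in brown, which made 5 members higher in brown and 2 in white.

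Other enzymes of the acylation steps and the lipid phosphate phosphatases were read from a list of 9 genes drawn from general knowledge. Of these 7 were tested and all 7 were called, beside 61% of all genes. Gpat4, another acyltransferase of the endoplasmic reticulum, was higher in brown, with 978, 731 and 734 in brown against 269, 404 and 259 in white (1.41; limma adjusted p = 7.51e-05). Its direction was opposite to that of Gpat3. The other Gpat4 probe set was dimmer, with 80.5, 71.9 and 61.6 in brown against 47.4, 53.8 and 63.8 in white. Its tissues overlapped and it was not called (0.38, limma adjusted p = 0.160 over probe sets). Agpat1 (1.04; limma adjusted p = 0.000169) and Agpat5 (0.58; limma adjusted p = 0.000721), of the same step as Agpat2, were higher in brown too. Agpat5 lost its call with the deposited scaling (0.07, limma adjusted p = 0.524). Agpat4 was higher in white at -0.45 (limma adjusted p = 0.0445), but was not called when replicate 2 or replicate 3 of brown (adjusted p = 0.0619 and 0.141), or replicate 1 or replicate 3 of white (0.124 and 0.129), was left out.

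The 3 lipid phosphate phosphatases, which also act on phosphatidic acid but at the cell surface, were called higher in white. Plpp3 had 563, 621 and 510.1 in brown against 3506, 2926 and 3138 in white (-2.50; limma adjusted p = 1.13e-08), or 5.65-fold lower in brown. Plpp2 (-0.70; limma adjusted p = 0.000236) and Plpp1 (-0.64; limma adjusted p = 0.00981) differed by less. The Plpp1 call was lost with the mean over probe sets (-0.27, limma adjusted p = 0.101), and the dimmest of its 3 probe sets read 0.45 and was not called. Brown was higher for 3 genes of the list and white for 4, beside 28.2% and 32.7% of all genes. The list's median was -0.45 against -0.04 over all genes. That median is the value of Agpat4, and it pools acyltransferases with the phosphatases. The genes higher in brown, Gpat4, Agpat1 and Agpat5, are all acyltransferases, and the phosphatases were all higher in white. Gpat2 and Mogat2 were absent on all arrays.

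Macrophage and mesothelial markers were higher in white, as were Gpat3, Lpin1 and Mogat1. All 10 macrophage markers were higher in white, with a summed signal of 2793 to 3354 in brown and 18815 to 19623 in white. Such sums add arbitrary units over genes, so the brightest probe sets weigh most, here Lyz2 (mean 5733 in white) and Csf1r (4954). They do not measure the amount of a cell type. All 6 mesothelial markers were higher in white as well, with sums of 185 to 223 in brown and 3287 to 3338 in white, and Msln, which defines mesothelium, averaged 1.78 in brown. The macrophage marker Mpeg1, the mesothelial Msln, Upk3b, Krt19 and Slpi and the endothelial Pecam1 had no present call on the brown arrays. They passed the filter through their white arrays, so their brown signals, which the sums include, are not measured levels. Of 5 endothelial markers 3 were higher in white and 2, Kdr (0.04) and Tek (-0.25), were not called (sums of 1621 to 1843 in brown and 2340.1 to 2451 in white). Of 8 skeletal muscle markers 2 were tested. Myl1 was 3.34-fold higher in brown (1.74) and made up most of the brown sum (943 to 1198 in brown and 437 to 545 in white). Acta1 lay the other way and was not called, with 97.7, 144.9 and 2.16 in brown against 153, 224 and 164 in white (-2.51; limma adjusted p = 0.113). The median of these 2 was -0.38. The part of these cells in the differences of Gpat3, Mogat1, Lpin1 and the lipid phosphate phosphatases was not tested.

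Partners of the assembly enzymes were read from 6 genes, of which 5 were tested. Bscl2, which encodes seipin, a protein of lipid droplet formation whose loss causes lipodystrophy, was higher in white, with 3769, 3465 and 3437 in brown against 5329.7, 5179 and 4895 in white (-0.53; limma adjusted p = 1.82e-05). Its other probe set was called the opposite way, at 0.38 (limma adjusted p = 0.0116 over probe sets). Median centring ended the call of the brighter probe set (-0.02, limma adjusted p = 0.737). The mean over both Bscl2 probe sets was not called (-0.08, limma adjusted p = 0.337). Ldaf1, the droplet assembly factor that binds seipin, was listed under an older symbol and was absent on all brown arrays. It had 178, 157 and 185 in brown against 403, 434 and 456 in white, an estimate of 2.49-fold higher in white (limma adjusted p = 3.88e-06). Ldaf1 passed the filter through its white arrays, so its brown signals are not measured levels and the p-value is no separate support. Ctdnep1, the phosphatase that activates lipins, was called higher in brown at 0.24 (limma adjusted p = 0.0469), but not when replicate 1 or replicate 2 of brown (adjusted p = 0.0696 and 0.139) or of white (0.152 and 0.102) was left out. Its regulatory subunit Cnep1r1 (0.05, limma adjusted p = 0.628) and the droplet protein Fitm2 (-0.03, limma adjusted p = 0.803) were not called, although Fitm2 was called higher in white with the deposited scaling (-0.34, limma adjusted p = 0.00293) and with spike-in scaling (-0.34, limma adjusted p = 0.0436), and Fitm1 was absent on all arrays. Brown was higher for 1 gene of the list and white for 2, beside 28.2% and 32.7% of all genes, and the list's median was -0.03 against -0.04 over all genes.

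Phosphatidic acid and diacylglycerol are also spent on phospholipids. Of 13 genes listed for that branch 10 were tested. Brown was higher for 5 and white for 2, beside 28.2% and 32.7% of all genes, the other 3 were not called, and the list's median was 0.31 against -0.04 over all genes. Chkb, a choline and ethanolamine kinase, had 2121, 2219.9 and 1630.5 in brown against 414, 359 and 404 in white (2.33; limma adjusted p = 9.82e-08). The platform assigns a further probe set jointly to Chkb and its neighbour Cpt1b, so the signals of these genes may not be fully separate. Pcyt2, which makes CDP-ethanolamine, was 2.87-fold higher in brown (1.52; limma adjusted p = 7.73e-06), and Pcyt1a, its counterpart for choline, was higher by 0.70 (limma adjusted p = 0.000452). Pcyt1a lost its call with the deposited scaling (0.22, limma adjusted p = 0.116).

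The CDP-diacylglycerol synthases, which draw phosphatidic acid away from diacylglycerol, went apart. Cds1 had 153, 117 and 145 in brown against 32.9, 74.6 and 27.7 in white (1.75; limma adjusted p = 0.00133), and was present on 1 white array. With 64 units added to every signal the Cds1 difference was 0.91. Cds2 was higher in white at -0.61 (limma adjusted p = 0.000795), but its tested probe sets had differences on both sides of 0, and without those prone to cross-hybridisation it had 0.24 and was not called (limma adjusted p = 0.188). The Cds2 call was also lost with the mean over probe sets (-0.15, limma adjusted p = 0.223). Etnk1, an ethanolamine kinase, was called higher in brown at 0.21 (limma adjusted p = 0.0396), but only without brown replicate 1 (0.0373) did the call hold among the 6 fits that left out an array. In the other 5 its limma adjusted p ran from 0.0632 without white replicate 1 to 0.110 without brown replicate 3, with 0.0813 without brown replicate 2, 0.0841 without white replicate 2 and 0.105 without white replicate 3. Selenoi, which makes phosphatidylethanolamine from diacylglycerol, was higher in white at -0.53 (limma adjusted p = 0.0239). Its call was lost without brown replicate 1 (0.0720), white replicate 1 (0.0834) or white replicate 2 (0.0632). The mean over its tested probe sets was not called either (-0.23, limma adjusted p = 0.230). Chka (0.41), Chpt1 (0.13) and Cept1 (-0.06), a choline kinase and the enzymes that join the head group to diacylglycerol, were not called (limma adjusted p = 0.119, 0.103 and 0.614). The other 3 Chpt1 probe sets were each called higher in brown, at 0.36, 0.45 and 0.28 (limma adjusted p = 0.00133, 0.000149 and 0.00562 over probe sets). Chpt1 was also called with the deposited scaling (0.23), the mean over probe sets (0.30), median centring (0.68) and brown replicate 2 left out (0.17). Cept1 was called higher in white with the deposited scaling (-0.46, limma adjusted p = 0.00332) and with spike-in scaling (-0.46, limma adjusted p = 0.0137). Pcyt1b and Pemt were absent on all 6 arrays, and no probe set was named for Etnk2 alone.

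**Figure D4:**
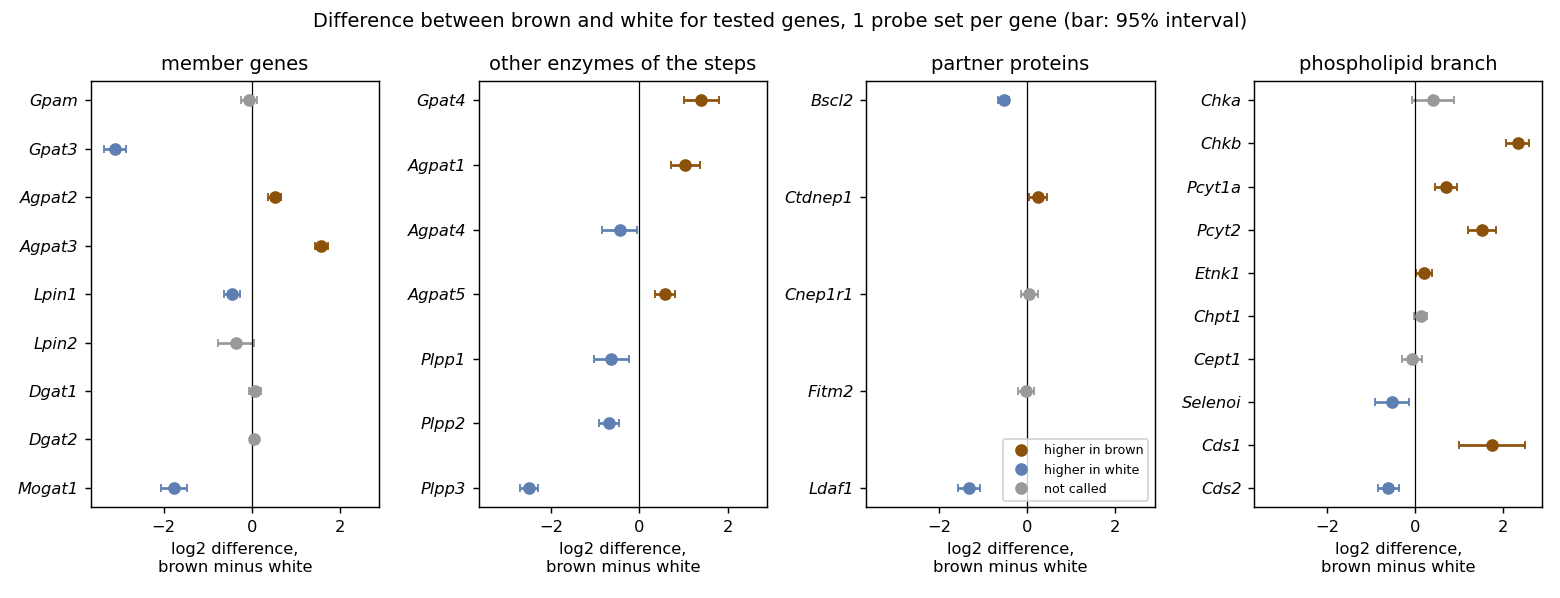
Log2 difference (brown minus white) with its 95% interval for the tested genes of each list, 1 probe set per gene, coloured by the call over all genes. Gpat3, Plpp3 and Mogat1 lie farthest to the left and Chkb farthest to the right.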

How the data were processed

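Total RNA of 6 samples was hybridised to one array each. Per the file headers, the deposited values are a signal intensity, a detection call and a detection p-value for each of 45101 probe sets. No source used here names the software, its scaling target or a genome build. Of these probe sets 64 controls were left out, and 34945 of the remaining 45037 carried 1 gene symbol and 932 several.

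From there, signals were floored at 0.1, taken to log2 and quantile-normalised. Those with a present call on 3 or more arrays (19819, or 10264 genes) entered a limma fit (version 3.58.1, R 4.3.3), with a variance trend and Benjamini-Hochberg adjustment at 0.05. A gene was read from its tested probe set with the highest mean log2 signal. A fold against a tissue with no array present was set against the lowest signals called present on those arrays or the probe set's own, whichever is higher. For Ldaf1 this was the probe set's own, so its fold is the estimate itself and not a lower bound. The number of arrays limits the precision.

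All 10 members, every called gene of the 3 other gene lists and the tissue checks are named, by rule. The members and lists were chosen with earlier results of these data known. Pairs with Lpin3 were not compared, since it was absent throughout. Alternatives covered the scaling, the filter, the choice of probe set, the variance trend, a replicate block and each array left out in turn.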

Additional observations from a re-analysis of the deposited data

How the results depend on the processing

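Over 17 alternatives, 133 of 152 values of single member genes kept both direction and call. These include the series' own table, whose columns run opposite, so its turns of sign were fixed in advance. The fits without a variance trend and with a replicate block leave each difference unchanged and could alter only the call. Deviations of same-numbered samples from their tissue means had correlations of 0.02, -0.01 and -0.05. Samples with different numbers ran from -0.05 to 0.07, so these values cannot show whether same-numbered samples came from 1 mouse. With a replicate block the members stayed at 2 higher in brown and 3 higher in white, while partners higher in brown went to 0. Partners higher in brown were also 0 without the detection filter and without the variance trend. As deposited, brown was higher for 2535 probe sets and white for 10785, and likewise for 1535 and 5758 genes and 0 and 4 partners. With spike-in scaling these were 2295 and 10112 probe sets, 1376 and 5348 genes, 0 and 4 partners, and 3 phospholipid genes higher in brown. Ctdnep1 (-0.15), Cnep1r1 (-0.34), Chka (-0.10) and Etnk1 (-0.19) turned under both. The balance of Lpin2 against Lpin1 (-0.38) and of Dgat2 against Dgat1 (0.14) turned under deposited, spike-in and median scaling.

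With the mean over probe sets, 4 members were higher in brown, 1 partner and 0 phospholipid genes were higher in white, and Gpam (0.38), Cnep1r1 (-0.082), Chka (-0.023), Etnk1 (-0.10) and the balance of Dgat2 against Dgat1 (0.13) turned. With median centring, 5 members were higher in brown, 2 member probe sets and 1 partner were higher in white, and Gpam (0.41) and Fitm2 (0.10) turned. Without cross-hybridising probe sets 1 phospholipid gene was higher in white and Cds2 turned (0.24). With probe sets present on all 6 arrays, white was higher for 3944 probe sets and 1 partner, brown for 3 phospholipid genes, and Chka turned (-0.46). The series' own table, whose columns run opposite, gave the reverse sign for Gpam (0.001155), Gpat3 (3.31), Agpat2 (-0.59), Agpat3 (-1.45), Lpin1 (0.35), Lpin2 (0.32), Dgat1 (-0.092), Dgat2 (-0.008619) and Mogat1 (2.03).

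Leaving out each array in turn kept the members at 2 to 2 higher in brown and 3 to 3 in white. Partners higher in brown ran from 0 to 1, and were 0 when replicate 1 or replicate 2 of either tissue was left out. Phospholipid genes higher in white ran from 1 to 2, with 1 without brown replicate 1, white replicate 1 or white replicate 2. Gpam ran from -0.15 to 0.025, Fitm2 from -0.064 to 0.031, Cept1 from -0.14 to 0.037 and the balance of Dgat2 against Dgat1 from -0.069 to 0.042. The cause of these changes was not tested. Dim probe sets, such as those of Lpin2 and Lpin3, limit what can be said of those genes.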
